A study of Homo sapiens with 6 samples.

Results

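The genes described here are 59 genes of DNA replication and S phase, compared between PC3 cells that overexpress GCNT1 and control PC3 cells. They were listed by symbol, in 9 groups by role, with earlier results of these data known. All 59 were matched to a row of the count table, which holds 12703 genes, and all 59 passed the filter on low counts. Their counts ran from 47 to 6652 in a single library, so none lay near the detection floor of 3 counts.

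PC3 is a long-established human cell line from a bone metastasis of prostate cancer. GCNT1 is a Golgi enzyme that adds a branching sugar to O-glycans. The study made stable PC3 lines by lentiviral transduction, and RNA sequencing covered 3 control lines carrying negative-control particles and 3 lines carrying GCNT1 (GCNT1 OE). Every line in both groups was thus transduced with a lentivirus, and the sources used here name no further treatment of either group. The labels call the 3 lines of a group biological replicates but do not say whether they came from separate transductions, so the p values measure only the spread between these samples. The promoter that drives the GCNT1 reading frame is not given in the sources used here.

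Chromosomes are copied once per cell cycle. In G1 phase the origin recognition complex, CDC6 and CDT1 load the ring of MCM2 to MCM7 onto origins, which licenses them. In S phase the kinase CDC7 with DBF4 lets CDC45 and the GINS complex join the ring to form the active helicase, and the polymerases, the sliding clamp PCNA, the ligase and the enzymes that supply deoxynucleotides then work at the moving forks. Many of these genes are transcribed under control of the E2F factors, whose family holds both activators and repressors. Prostate cancer lines divide continuously in culture, so the whole set is normally expressed in them.

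Library totals lay between 11392213 and 13825704 counts. Levels are given in CPM, counts scaled to a common library size of 1000000 with edgeR's TMM factors, and a log2 fold change is GCNT1 OE over control with its standard error (SE). GCNT1 itself was at 0.715, 1.04 and 0.677 CPM in control libraries 1 to 3 and at 1.12, 1.16 and 2.48 CPM in GCNT1 OE libraries 1 to 3. Its log2 fold change was 0.98 (SE 0.37, edgeR quasi-likelihood test with Benjamini-Hochberg adjustment, adjusted p = 0.0362) and 0.49 without GCNT1 OE library 3. It passed in 9 of 13 alternatives, with adjusted p values up to 0.269. The counts behind these values were 8 to 13 in the control libraries and 13 to 35 in the GCNT1 OE libraries. How much of the lentiviral GCNT1 transcript these counts hold was not tested. The study itself checked GCNT1 overexpression in PC3 cells by real-time PCR, ELISA and immunocytochemistry, which were not analysed here. All 5 epithelial markers searched were present, with a summed level of 822 to 869 CPM in the control and 626 to 710 CPM in the GCNT1 OE libraries. Of the other cell types, 1 of 5 fibroblast markers (13.7 to 15.7 against 8.23 to 8.86 CPM), 1 of 5 immune markers (83.4 to 94.4 against 80.0 to 89.5 CPM, all from CD68), 2 of 4 endothelial markers (148 to 166 against 47.7 to 63.4 CPM, without VWF or CDH5) and 1 of 4 neuroendocrine markers (2.70 to 3.47 against 1.12 to 1.89 CPM) had a row. The endothelial sum was almost all KDR (154 against 53.1 CPM), while PECAM1 rose from 1.77 to 4.43 CPM. Of 5 prostate luminal markers, 2 had a row, at a summed 7.53 to 8.98 CPM in the control and 3.97 to 4.61 CPM in the GCNT1 OE libraries. In bulk RNA a change in the share of cells in S phase and a change in RNA per cell cannot be told apart.

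Most of the 59 genes changed little. Their log2 fold changes ran from -0.70 to 0.97, and 54 of the 59 lay within 0.58 of zero. At an adjusted p under 0.05 in edgeR's quasi-likelihood test, 25 genes (42.4%) rose, 8 (13.6%) fell and 26 did not pass. Over all 12703 genes tested, 28.3% rose and 29.3% fell. Together 55.9% of the 59 genes passed the test, against 57.6% of all genes tested, so the share that changed was near the background. The median log2 fold change was 0.10 over the 59 genes and 0.00 over all genes tested, whose middle range between quartiles was -0.27 to 0.26.

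The study called a gene differentially expressed when its adjusted p was under 0.05 and its log2 fold change was at least 0.58 in size. Past both of these thresholds there were 5 of the 59 genes (8.47%), against 19.3% of all genes tested. MCM10, E2F2 and E2F7 rose past both, where 8.28% of all genes did so, and RRM2 and TYMS fell past both, where 11.1% of all genes did so. Without overlap between the groups, 28 genes were higher in every GCNT1 OE library (30.9% of all genes tested) and 11 were lower (31.6% of all genes tested).

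**Figure D1:**
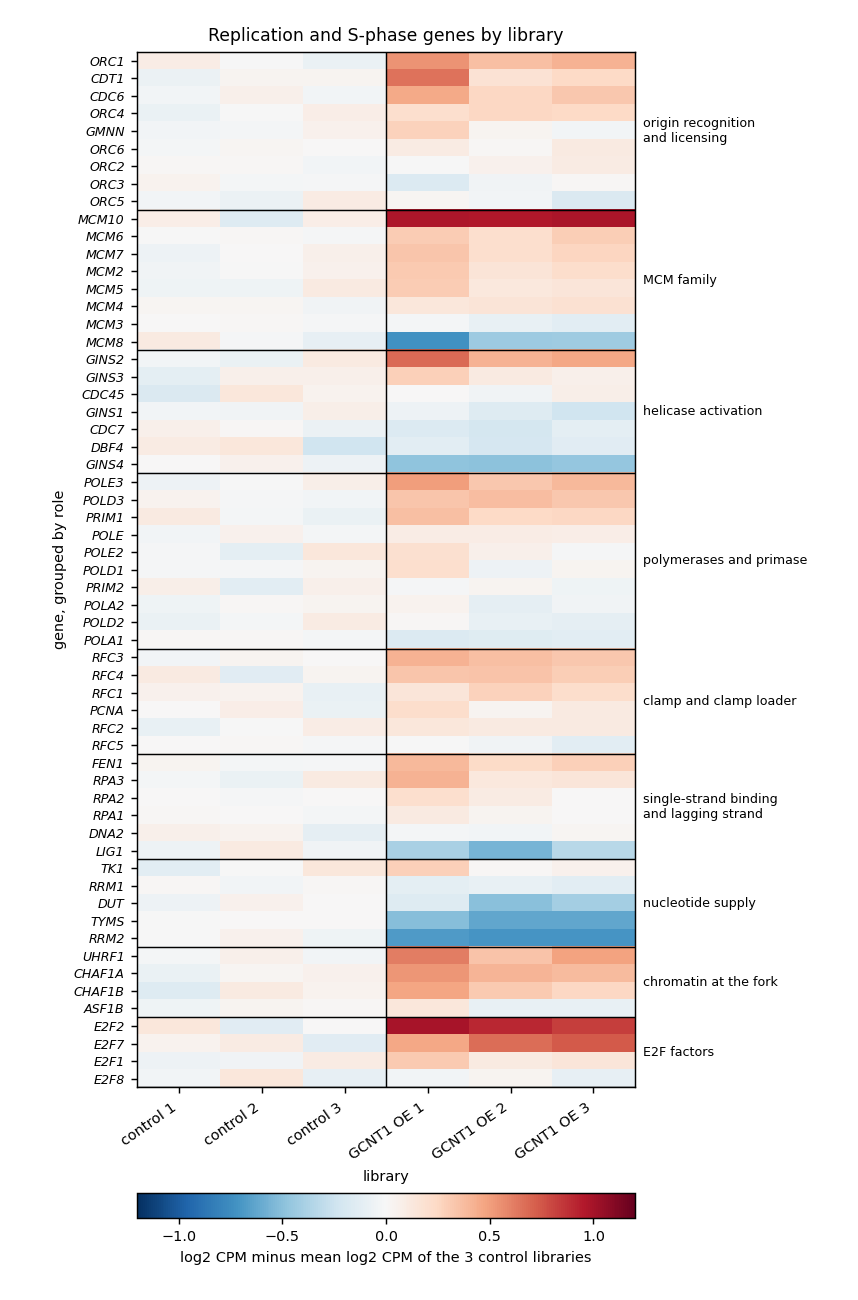
Level of each of the 59 genes (rows, grouped by role) in each of the 6 libraries (columns), as log2 CPM minus the mean log2 CPM of the 3 control libraries, with red for higher and blue for lower. MCM10 and E2F2 are the darkest red rows, RRM2, TYMS and MCM8 the darkest blue ones, and most rows stay pale in all 6 libraries.

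GCNT1 OE library 1 stood apart from the other libraries for these genes. It was the highest of its group in 39 of the 59 genes, with a median deviation from the group mean of 0.070 on the log2 scale, against -0.029 for library 2 and -0.020 for library 3. Among genes at 5 CPM or more, the same library had the lowest relative level of the 25% of genes with the longest transcripts (median deviation -0.083) and the highest of the 25% with the shortest (0.066). Control library 3 had the same pattern (-0.058 and 0.052), and GCNT1 OE library 2 the reverse (0.055 and -0.043). The part of transcript length in the levels of the 59 genes was not tested. Without this library 22 genes rose, 8 fell and the median log2 fold change was 0.07.

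**Figure D2:**
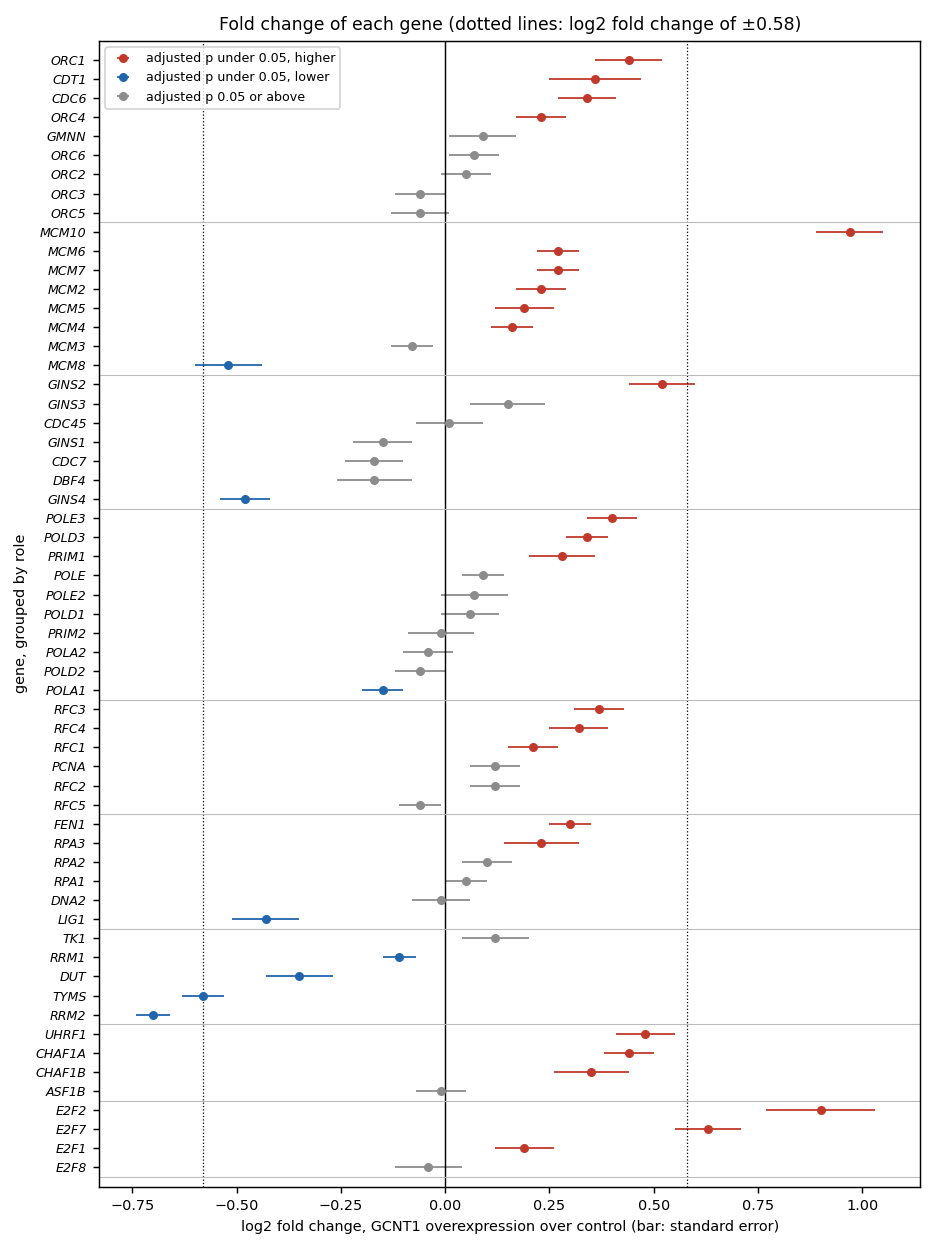
Log2 fold change (GCNT1 overexpression over control) of each of the 59 genes with its standard error as a bar, ordered within role groups. Red and blue mark the 25 genes that rose and the 8 that fell at an adjusted p under 0.05, and the dotted lines stand at 0.58 above and below zero, past which 5 genes lie.

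Promoter sequences are shown for 5 genes: the 3 that rose past both thresholds, TYMS, which fell past both, and MCM6, chosen after the motif search because its window held the most E2F words of the set. RRM2 also fell past both thresholds, but its window overlaps an exon of the gene and is not printed. Each run is the 250 bases before the RefSeq start of the gene on its own strand, 5′ to 3′, in GRCh38.p14, the same build as hg38. Where a gene had several starts, the farthest upstream was taken. Capitals mark E2F words, spelled TTTNNCGC with each N either C or G, and the CCAAT box, in each case on either strand, so that ATTGG is a CCAAT box on the other strand and capitals may join where words overlap.
MCM10, chr10:13161308-13161557, plus strand: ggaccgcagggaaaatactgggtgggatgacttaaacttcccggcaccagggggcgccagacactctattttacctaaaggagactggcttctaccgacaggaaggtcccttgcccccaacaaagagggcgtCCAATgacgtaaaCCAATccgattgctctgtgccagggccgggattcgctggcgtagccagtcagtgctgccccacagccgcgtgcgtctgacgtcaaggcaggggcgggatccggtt
E2F2, chr1:23531234-23531483, minus strand: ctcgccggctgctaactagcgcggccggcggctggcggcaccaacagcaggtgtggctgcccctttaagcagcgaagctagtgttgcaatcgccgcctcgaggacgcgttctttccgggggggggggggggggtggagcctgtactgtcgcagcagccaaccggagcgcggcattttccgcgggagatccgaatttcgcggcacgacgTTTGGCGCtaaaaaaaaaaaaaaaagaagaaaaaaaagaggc
E2F7, chr12:77065570-77065819, minus strand: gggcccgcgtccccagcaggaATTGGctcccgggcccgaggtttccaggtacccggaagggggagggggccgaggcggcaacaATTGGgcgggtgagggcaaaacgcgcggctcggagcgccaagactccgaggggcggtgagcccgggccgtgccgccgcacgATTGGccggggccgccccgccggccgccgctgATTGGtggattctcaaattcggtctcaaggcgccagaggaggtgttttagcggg
MCM6, chr2:135876444-135876693, minus strand: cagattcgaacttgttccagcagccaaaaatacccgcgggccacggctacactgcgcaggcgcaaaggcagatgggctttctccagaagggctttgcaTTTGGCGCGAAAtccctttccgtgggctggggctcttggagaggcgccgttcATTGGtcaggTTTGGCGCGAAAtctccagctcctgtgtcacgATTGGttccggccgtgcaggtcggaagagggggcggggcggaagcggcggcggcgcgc
TYMS, chr18:657403-657652, plus strand: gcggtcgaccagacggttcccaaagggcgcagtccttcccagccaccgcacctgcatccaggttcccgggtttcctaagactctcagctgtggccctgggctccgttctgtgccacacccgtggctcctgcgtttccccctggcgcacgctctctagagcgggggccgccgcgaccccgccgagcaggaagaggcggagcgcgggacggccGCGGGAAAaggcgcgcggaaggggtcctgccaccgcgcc

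The MCM10 window held no E2F word and 2 CCAAT boxes. The E2F2 window held 1 E2F word, whose first base lies 42 bases before the start. E2F7 had 4 CCAAT boxes and no E2F word. In MCM6 there were 4 E2F words, with first bases 152, 148, 90 and 86 bases before the start. They form pairs in which words on opposite strands overlap, and 2 CCAAT boxes lie beside them. The TYMS window held 1 E2F word, 39 bases before the start, and overlaps an exon of the antisense transcript TYMSOS. The RRM2 window, searched with the 50 bases after the start included, held no E2F word and 3 CCAAT boxes.

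A search of the full 300 bases that RefSeq gives per start, 250 before the start and 50 after it, matched 51 of the 59 genes. A gene with several starts counted as holding a word if any of its windows held it. GINS4, MCM4, MCM5, POLD3, RPA2, RPA3, DNA2 and E2F8 had no entry. An E2F word was present in 25 of the 51 (49.0%), against 6.67% of the 10236 tested genes with a window and 3.99% of all 27305 genes of the table. A CCAAT box was present in 30 of the 51 (58.8%), against 43.4% of the tested genes and 39.7% of the whole table. The word TTTGAA, the cell cycle homology region (CHR) known from genes of mitosis, was present in 5 (9.80%), against 13.7% and 18.2%. E2F words stood in 10 of the 21 matched genes that rose (47.6%), in 5 of the 7 that fell (71.4%) and in 10 of the 23 that did not pass the test (43.5%). The word was thus found in genes that rose, genes that fell and genes that did not pass, and a match of letters shows neither binding nor control.

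The role groups hold 4 to 10 genes each, and each count stands against the same background, 28.3% of all genes tested higher and 29.3% lower. Among the 9 genes of origin recognition and licensing, 4 rose, none fell and 5 did not pass, with a median log2 fold change of 0.09. ORC1, the largest subunit of the origin recognition complex, was at 21.1, 19.8 and 18.8 CPM in control libraries 1 to 3 and at 28.9, 25.6 and 26.6 CPM in GCNT1 OE libraries 1 to 3. Every GCNT1 OE library lay above every control library. The log2 fold change of ORC1 was 0.44 (SE 0.08, edgeR adjusted p = 0.000446), and that of ORC4, another subunit, was 0.23 (SE 0.06, edgeR adjusted p = 0.00572). The other subunits ORC2, ORC3, ORC5 and ORC6 had log2 fold changes of 0.05, -0.06, -0.06 and 0.07 and did not pass the test.

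CDC6, an ATPase that recruits the MCM ring to origins, was at 48.2, 51.3 and 48.1 CPM in the control libraries and at 67.6, 58.5 and 61.4 CPM in the GCNT1 OE libraries, without overlap. It rose by a log2 fold change of 0.34 (SE 0.07, edgeR adjusted p = 0.000687). CDT1, which loads the ring together with CDC6, was at 34.0, 36.7 and 36.7 CPM against 56.2, 40.4 and 42.3 CPM. All GCNT1 OE libraries were above the controls, but library 1 was far above the other two. The log2 fold change of CDT1 was 0.36 (SE 0.11, edgeR adjusted p = 0.0102). Without GCNT1 OE library 1 it was 0.21 (edgeR adjusted p = 0.0185), and relative to its 50 nearest genes it was 0.07. GMNN encodes geminin, the inhibitor that binds CDT1 after licensing, and was at 34.0, 34.4 and 36.2 CPM against 42.2, 35.7 and 34.0 CPM. The GMNN groups overlapped, and its log2 fold change of 0.09 (SE 0.08) did not pass the test (edgeR adjusted p = 0.351). The ratio of CDT1 to GMNN counts within a library, a pair chosen after their values were seen, was 1.00, 1.07 and 1.01 in the control and 1.33, 1.13 and 1.24 in the GCNT1 OE libraries.

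The 8 genes of the MCM family divided into 6 that rose, 1 that fell (MCM8) and 1 that did not pass (MCM3), where 28.3% of all genes tested rose and 29.3% fell, with a median log2 fold change of 0.21. MCM10, which helps to activate the helicase at origins and is not part of the ring, had the largest rise of the 59 genes. Its level was 16.0, 13.6 and 16.1 CPM in control libraries 1 to 3 and 29.8, 29.6 and 30.0 CPM in GCNT1 OE libraries 1 to 3. The GCNT1 OE libraries lay close together at nearly the double of the controls, and the groups were far apart. MCM10 rose by a log2 fold change of 0.97 (SE 0.08, edgeR adjusted p = 5.34e-07), or 96.1%, for this gene at 13161558 to 13211110 of chromosome 10, Entrez gene 55388. Its neighbours were also higher, with a median log2 fold change of 0.70 over the 50 nearest analysed genes on the chromosome.

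The 6 subunits of the helicase ring rose by small amounts or did not pass. MCM2 was at 120.5, 123 and 128 CPM in the control libraries and at 155, 138 and 143 CPM in the GCNT1 OE libraries, a log2 fold change of 0.23 (SE 0.06, edgeR adjusted p = 0.00329). MCM6 was at 88.5, 89.5 and 87.9 CPM against 109.7, 102 and 108.5 CPM, and MCM7 at 209.3, 219.7 and 228 CPM against 276.5, 252 and 262 CPM. For all 3 genes every GCNT1 OE library was above every control library. MCM6 and MCM7 both had a log2 fold change of 0.27 (SE 0.05), with edgeR adjusted p values of 0.000767 and 0.000631.

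MCM4 was at 77.4, 77.7 and 74.0 CPM in the control libraries and at 83.9, 85.2 and 86.6 CPM in the GCNT1 OE libraries, a log2 fold change of 0.16 (SE 0.05, edgeR adjusted p = 0.0199). MCM5 was at 81.6, 81.4 and 91.2 CPM against 104.6, 92.2 and 93.8 CPM, a log2 fold change of 0.19 (SE 0.07, edgeR adjusted p = 0.0243). Both sets of libraries were apart, but for MCM5 control library 3 came close to the lowest GCNT1 OE library. Neither call was firm, since leaving out control library 1, control library 2 or GCNT1 OE library 1 took MCM5 past an adjusted p of 0.05 (0.0695, 0.107 and 0.0693 in edgeR) and leaving out control library 3 or GCNT1 OE library 3 did so for MCM4 (0.0629 and 0.0813 in edgeR). MCM3 was at 209.9, 211 and 207.5 CPM against 206, 197 and 191.5 CPM. Here the GCNT1 OE libraries were all below the controls, by a log2 fold change of -0.08 (SE 0.05) that did not pass the test (edgeR adjusted p = 0.149).

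MCM2 to MCM7 form a ring with 1 copy of each subunit, yet their transcript levels differed. Per kilobase of the canonical transcript, MCM7 was at 88.8, MCM3 at 68.3, MCM2 at 36.1, MCM5 at 24.5, MCM6 at 23.6 and MCM4 at 18.8 CPM in the control group. In the GCNT1 OE group the order was the same apart from MCM6 (28.4 CPM per kilobase) and MCM5 (28.0), which lay side by side in both groups. MCM7 and MCM3 drew apart, as the ratio of their counts, a pair chosen after their values were seen, was 0.997, 1.04 and 1.10 in the control libraries and 1.34, 1.28 and 1.37 in the GCNT1 OE libraries.

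MCM8, which works with MCM9 in homologous recombination and not in the replicative ring, was the only member of the family that fell. It is named after its values were seen. Its level was 71.0, 65.1 and 61.6 CPM in the control libraries and 39.7, 48.6 and 49.0 CPM in the GCNT1 OE libraries, with GCNT1 OE library 1 lowest and no overlap. MCM8 had a log2 fold change of -0.52 (SE 0.08, edgeR adjusted p = 0.00013). MCM8 overlaps an antisense gene, MCM8-AS1, and reads of the 2 genes cannot be told apart if the counting did not use strand, which the sources used here do not state. It also overlaps another gene on its own strand, which counting by strand would not separate.

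**Figure D3:**
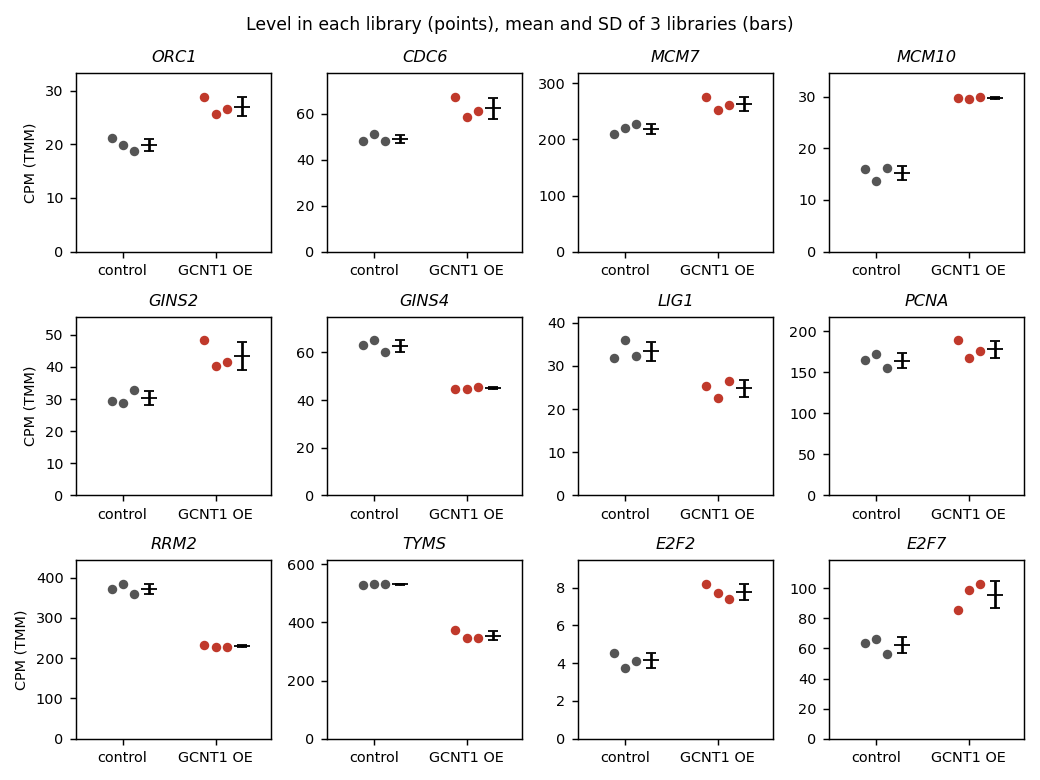
Level in CPM (y axis, from 0) of 12 of the genes in each of the 3 control and 3 GCNT1 OE libraries (points), with the mean and SD of each group as bars. The groups are apart for every gene shown except PCNA, whose lowest GCNT1 OE library (168 CPM) lies below the highest control library (172.7 CPM).

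Of the 7 genes of helicase activation, 1 rose, 1 fell and 5 did not pass, with a median log2 fold change of -0.15. The 2 that changed are subunits of the same complex, GINS, which has 1 copy of each of its 4 subunits. GINS2 was at 29.5, 28.7 and 32.7 CPM in control libraries 1 to 3 and at 48.4, 40.3 and 41.6 CPM in GCNT1 OE libraries 1 to 3, with all GCNT1 OE libraries above the controls. Its log2 fold change was 0.52 (SE 0.08, edgeR adjusted p = 0.000157). GINS4 was at 63.0, 65.2 and 60.1 CPM against 44.8, 44.7 and 45.6 CPM, with all GCNT1 OE libraries below the controls and close to one another. Its log2 fold change was -0.48 (SE 0.06, edgeR adjusted p = 1.39e-05).

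The ratio of GINS2 to GINS4 counts in a library, which does not depend on the scaling between libraries, was 0.468, 0.440 and 0.544 in the control libraries and 1.08, 0.901 and 0.911 in the GCNT1 OE libraries. The mean ratio thus went from 0.484 ± 0.0541 to 0.964 ± 0.101 (SD, n = 3), a factor of 1.99, for a pair chosen after their values were seen. Relative to the median of its 50 nearest genes the log2 fold change was 0.20 for GINS2 (neighbours at 0.31) and -0.50 for GINS4 (neighbours at 0.02). GINS1 (log2 fold change -0.15, edgeR adjusted p = 0.0652) and GINS3 (0.15, edgeR adjusted p = 0.15) did not pass. Per kilobase of canonical transcript GINS4 (16.7 CPM) was above GINS2 (11.5 CPM) in the control group, and GINS2 (16.5 CPM) was above GINS4 (11.9 CPM) in the GCNT1 OE group. GINS4 overlaps the antisense gene GPAT4-AS1. CDC45, the third part of the active helicase, had a log2 fold change of 0.01, and the kinase CDC7 and its activator DBF4 both had -0.17 without passing the test.

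Of the 10 genes of the polymerases and primase, 3 rose, 1 fell and 6 did not pass, with a median log2 fold change of 0.07. POLE3 encodes a small histone-fold subunit of polymerase epsilon, the leading-strand enzyme. It was at 129.7, 135 and 142.5 CPM in the control libraries and at 191.5, 169.6 and 177 CPM in the GCNT1 OE libraries, well apart and with GCNT1 OE library 1 highest. POLE3 rose by a log2 fold change of 0.40 (SE 0.06, edgeR adjusted p = 5.78e-05), beside a median of 0.26 for its 50 nearest genes. The catalytic subunit POLE and the second subunit POLE2 had log2 fold changes of 0.09 and 0.07 and did not pass.

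The other genes that rose were POLD3, an accessory subunit of polymerase delta (log2 fold change 0.34, SE 0.05, edgeR adjusted p = 0.000103), and PRIM1, the catalytic subunit of primase (0.28, SE 0.08, edgeR adjusted p = 0.00662). POLA1, the catalytic subunit of polymerase alpha, fell by 0.15 on the log2 scale (SE 0.05, edgeR adjusted p = 0.0284). POLA1 lay between 77.6 and 79.7 CPM in the control libraries and between 70.5 and 72.2 CPM in the GCNT1 OE libraries. These are tight and separate groups, but the call was lost in several alternatives, among them each of 4 of the 6 fits without 1 library. PRIM2, POLA2, POLD1 and POLD2 had log2 fold changes between -0.06 and 0.06 without passing the test.

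Among the 6 genes of the clamp and its loader, 3 rose, none fell and 3 did not pass, with a median log2 fold change of 0.16. PCNA forms the sliding clamp that holds the polymerase on DNA and is widely used as a marker of proliferating cells. It was at 164.6, 172.7 and 154.7 CPM in control libraries 1 to 3 and at 189.3, 168 and 176 CPM in GCNT1 OE libraries 1 to 3. The groups overlapped, and the log2 fold change of 0.12 (SE 0.06) did not pass the test (edgeR adjusted p = 0.106). With single libraries left out, its log2 fold change ran from 0.07 without GCNT1 OE library 1 (edgeR adjusted p = 0.303) and 0.08 without control library 3 (edgeR adjusted p = 0.314) to 0.16 without GCNT1 OE library 2, where it passed (edgeR adjusted p = 0.0463). It also passed when scaled by library size alone (0.17, edgeR adjusted p = 0.0207).

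RFC3, a small subunit of the loader that opens the clamp, was at 41.3, 43.2 and 42.5 CPM in the control libraries and at 56.6, 54.2 and 53.1 CPM in the GCNT1 OE libraries. The groups did not overlap, and RFC3 rose by a log2 fold change of 0.37 (SE 0.06, edgeR adjusted p = 0.000163). RFC4, another small subunit, rose by 0.32 (SE 0.07, edgeR adjusted p = 0.00124), and RFC1, the large subunit, by 0.21 (SE 0.06, edgeR adjusted p = 0.00768). RFC2 (0.12) and RFC5 (-0.06) did not pass.

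In the group of 6 genes for single-strand binding and the lagging strand, 2 rose, 1 fell and 3 did not pass, with a median log2 fold change of 0.07. FEN1, the nuclease that removes the flap of each Okazaki fragment, was at 151, 144.6 and 146 CPM in the control libraries and at 193, 173 and 179 CPM in the GCNT1 OE libraries, without overlap. It rose by a log2 fold change of 0.30 (SE 0.05, edgeR adjusted p = 0.000287). LIG1, the ligase that seals the same fragments, was at 31.9, 36.0 and 32.3 CPM against 25.4, 22.6 and 26.5 CPM. All GCNT1 OE libraries were lower, and the log2 fold change of LIG1 was -0.43 (SE 0.08, edgeR adjusted p = 0.000615).

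The ratio of FEN1 to LIG1 counts, a pair chosen after their values were seen, was 4.74, 4.02 and 4.52 in the control libraries and 7.60, 7.65 and 6.76 in the GCNT1 OE libraries. FEN1 shares its strand and part of its span with FADS2, and LIG1 overlaps antisense genes. RPA3, the small subunit of the single-strand binding complex, rose by 0.23 (SE 0.09, edgeR adjusted p = 0.0461), a call that was made in only 8 of the 14 alternatives and was lost without control library 1, control library 2 or GCNT1 OE library 1. RPA1 (0.05), RPA2 (0.10) and the nuclease DNA2 (-0.01) did not pass.

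Of the 5 genes of nucleotide supply, none rose, 4 fell (29.3% of all genes tested did) and 1 did not pass, with a median log2 fold change of -0.35. RRM2, the regulated small subunit of ribonucleotide reductase, which makes deoxynucleotides from ribonucleotides, had the largest fall of the 59 genes. It was at 372.5, 385 and 360.5 CPM in control libraries 1 to 3 and at 233, 228 and 228 CPM in GCNT1 OE libraries 1 to 3. The GCNT1 OE libraries were nearly equal and far below every control, with means of 372.7 ± 12.3 and 229.8 ± 2.95 CPM (SD, n = 3). RRM2 had a log2 fold change of -0.70 (SE 0.04, edgeR adjusted p = 3.07e-08) for this gene of chromosome 2, Entrez gene 6241. The neighbours of RRM2 on the chromosome had a median of -0.49 over the 50 nearest analysed genes.

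TYMS encodes thymidylate synthase, which makes dTMP and is the target of fluoropyrimidines. It was at 528.6, 531 and 533 CPM in the control libraries and at 374, 345 and 345 CPM in the GCNT1 OE libraries. All GCNT1 OE libraries were far below the controls, with means of 531 ± 2.42 and 355 ± 16.6 CPM (SD, n = 3). The log2 fold change was -0.58 (SE 0.05, edgeR adjusted p = 2.24e-07), which lies at the fold threshold itself, so small shifts in the fit moved TYMS across it while its direction and adjusted p held in each of the 14 alternatives with a test. TYMS, at 657653 to 673578 of chromosome 18, overlaps ENOSF1 and TYMSOS on the other strand.

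DUT, the dUTPase that keeps uracil out of DNA, fell by 0.35 on the log2 scale (SE 0.08, edgeR adjusted p = 0.00231). It lay between 53.6 and 57.7 CPM in the control and had a mean of 43.7 ± 5.6 CPM in the GCNT1 OE libraries (SD, n = 3), with no overlap. RRM1, the large subunit of ribonucleotide reductase, fell by 0.11 (SE 0.04, edgeR adjusted p = 0.0394), a small change that was lost in each of the 6 fits without 1 library. The ratio of RRM2 to RRM1 counts, a pair chosen after their values were seen, was 1.32, 1.41 and 1.28 in the control libraries and 0.905, 0.870 and 0.888 in the GCNT1 OE libraries. TK1, the salvage kinase for thymidine, had overlapping groups, with 235 to 281 CPM in the control and 259 to 313.5 CPM in the GCNT1 OE libraries, and did not pass (log2 fold change 0.12, edgeR adjusted p = 0.201).

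These genes of nucleotide supply also had some of the highest levels. Per kilobase of canonical transcript TYMS was the highest of the 59 genes in both groups, at 329 CPM in the control and 219.9 CPM in the GCNT1 OE group. TK1 (180 and 195 CPM per kilobase), PCNA (128.5 and 139 CPM per kilobase) and RRM2 (114 and 70.5 CPM per kilobase) followed in the control group. In the GCNT1 OE group RRM2 was passed by MCM7 (106.8), FEN1 (90.2), ASF1B (88.7), POLD2 (87.5), RRM1 (82.4) and POLE3 (81.8 CPM per kilobase). E2F2 was the lowest in both groups, at 0.799 and 1.49 CPM per kilobase.

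Of the 4 genes of chromatin at the fork, 3 rose, none fell and 1 did not pass, with a median log2 fold change of 0.39. UHRF1, which reads hemimethylated DNA behind the fork and recruits DNMT1, was at 48.2, 51.0 and 48.0 CPM in the control libraries and at 74.9, 62.2 and 68.5 CPM in the GCNT1 OE libraries. Its libraries were well apart, with GCNT1 OE library 1 highest, and it rose by a log2 fold change of 0.48 (SE 0.07, edgeR adjusted p = 7.98e-05). CHAF1A, the large subunit of chromatin assembly factor CAF-1, was at 43.7, 46.9 and 47.8 CPM against 66.7, 61.2 and 59.9 CPM, again without overlap. It rose by 0.44 (SE 0.06, edgeR adjusted p = 7.34e-05). Its partner CHAF1B rose by 0.35 (SE 0.09, edgeR adjusted p = 0.00505), whereas ASF1B, the chaperone that hands histones to CAF-1, had a log2 fold change of -0.01 and did not pass.

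The 4 E2F factors held 3 genes that rose (28.3% of all genes tested did) and 1, E2F8, that did not pass, with a median log2 fold change of 0.41. The call of E2F1 was made in 9 of 14 alternatives. E2F2, an activator, was a gene of low level, with 47 to 57 counts in the control and 95 to 106 counts in the GCNT1 OE libraries. It was at 4.53, 3.77 and 4.14 CPM in control libraries 1 to 3 and at 8.21, 7.72 and 7.37 CPM in GCNT1 OE libraries 1 to 3, without overlap. E2F2 rose by a log2 fold change of 0.90 (SE 0.13, edgeR adjusted p = 7.29e-05), a rise of 86.4%. The gene lies at 23506438 to 23531233 of chromosome 1 (Entrez gene 1870), and its 50 nearest neighbours had a median of -0.15.

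E2F7, an atypical E2F that represses its targets, was at 63.9, 66.3 and 56.3 CPM in the control libraries and at 85.8, 98.6 and 103 CPM in the GCNT1 OE libraries. All GCNT1 OE libraries were higher, and library 1, the highest for most genes of the set, was here the lowest of its group. E2F7 rose by a log2 fold change of 0.63 (SE 0.08, edgeR adjusted p = 1.67e-05), and it dropped below 0.58 without control library 3 (0.56) or GCNT1 OE library 3 (0.57). E2F8, the other atypical E2F, had a log2 fold change of -0.04 (edgeR adjusted p = 0.705). The ratio of E2F7 to E2F8 counts, a pair chosen after their values were seen, was 1.79, 1.66 and 1.66 in the control libraries and 2.42, 2.64 and 3.03 in the GCNT1 OE libraries.

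E2F1, the best known activator, was at 63.2, 63.9 and 70.5 CPM in the control libraries and at 81.6, 70.8 and 72.8 CPM in the GCNT1 OE libraries. The groups were separate only by the narrow gap between control library 3 and GCNT1 OE library 2. Its log2 fold change of 0.19 (SE 0.07) passed the test (edgeR adjusted p = 0.0315) but not without GCNT1 OE library 1 (0.13, edgeR adjusted p = 0.1), GCNT1 OE library 3 (0.21, edgeR adjusted p = 0.0522), control library 1 (0.17, edgeR adjusted p = 0.09) or control library 2 (0.17, edgeR adjusted p = 0.116).

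Over all genes tested 28.3% rose and 29.3% fell, which is the background for the other lists. Of 27 other replication and fork genes, 5 rose (18.5%) and 8 fell (29.6%), with a median log2 fold change of -0.02. TIPIN, of the fork protection complex, rose (13.6 ± 1.18 to 19.3 ± 0.884 CPM, SD, n = 3, log2 fold change 0.50, SE 0.09, edgeR adjusted p = 0.000385), and RNASEH2A, the catalytic subunit of RNase H2, fell (102 ± 4.60 to 70.7 ± 7.02 CPM, SD, n = 3, log2 fold change -0.54, SE 0.07, edgeR adjusted p = 2.57e-05). Of 17 other genes of nucleotide and chromatin supply, 3 rose and 3 fell (17.6% each), with a median of 0.01. SLBP, which binds the stem-loop of histone mRNA, rose by 0.60 (SE 0.06, edgeR adjusted p = 4e-06). DTYMK, the kinase that acts on dTMP after TYMS, fell by 0.75 on the log2 scale (SE 0.08, edgeR adjusted p = 5.87e-06), beside a median of -0.60 for its 50 nearest genes.

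Of 29 genes of G1/S control with a row, 11 rose (37.9%) and 9 fell (31.0%), shares not far from the background of 28.3% and 29.3%, with a median log2 fold change of 0.03. MYC, a transcription factor that drives entry into the cycle, rose from 91.6 ± 5.87 to 188.6 ± 12.5 CPM (SD, n = 3, log2 fold change 1.04, SE 0.06, edgeR adjusted p = 2.05e-08). RBL2, the p130 pocket protein that holds E2F targets down in quiescent cells, fell from 73.3 ± 5.85 to 47.3 ± 0.978 CPM (SD, n = 3, log2 fold change -0.63, SE 0.07, edgeR adjusted p = 3.79e-06). The cyclins of the G1/S transition CCNE1 and CCNE2, named after their values were seen, rose by log2 fold changes of 0.79 (SE 0.15, edgeR adjusted p = 0.000574) and 0.63 (SE 0.08, edgeR adjusted p = 2.08e-05). CCNE1 was low, at 35 to 37 counts in the control libraries. Of the other cyclins of this list, CCND1 (-0.22, edgeR adjusted p = 0.000469) and CCNA2 (-0.15, edgeR adjusted p = 0.0307, called in 7 of 14 alternatives) fell. CCND3 (0.02) did not pass.

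The 30 genes of G2/M and mitosis differed in direction from the replication genes. In this list 1 gene rose and 28 fell (93.3%, against 29.3% of all genes tested). Of the falls, 23 passed both thresholds, as did 11.1% of all genes tested downward, and the median log2 fold change was -0.79, against 0.10 for the replication and S-phase genes. CENPA, the centromeric histone, had the smallest p value, at 47.1 ± 1.02 CPM in the control and 15.1 ± 0.368 CPM in the GCNT1 OE libraries (SD, n = 3, log2 fold change -1.64, SE 0.07, edgeR adjusted p = 5.76e-10). FOXM1 alone rose (log2 fold change 0.17, SE 0.06, edgeR adjusted p = 0.0197), a call made in 10 of 14 alternatives. The ratio of PCNA to MKI67 counts, both in use as proliferation markers and paired after their values were seen, was 0.342, 0.364 and 0.369 in the control libraries and 0.706, 0.538 and 0.562 in the GCNT1 OE libraries. Promoter windows of the mitotic list held a CHR word in 16 of 24 genes (66.7%) and an E2F word in 3 (12.5%), against 9.80% and 49.0% for the replication and S-phase genes.

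**Figure D4:**
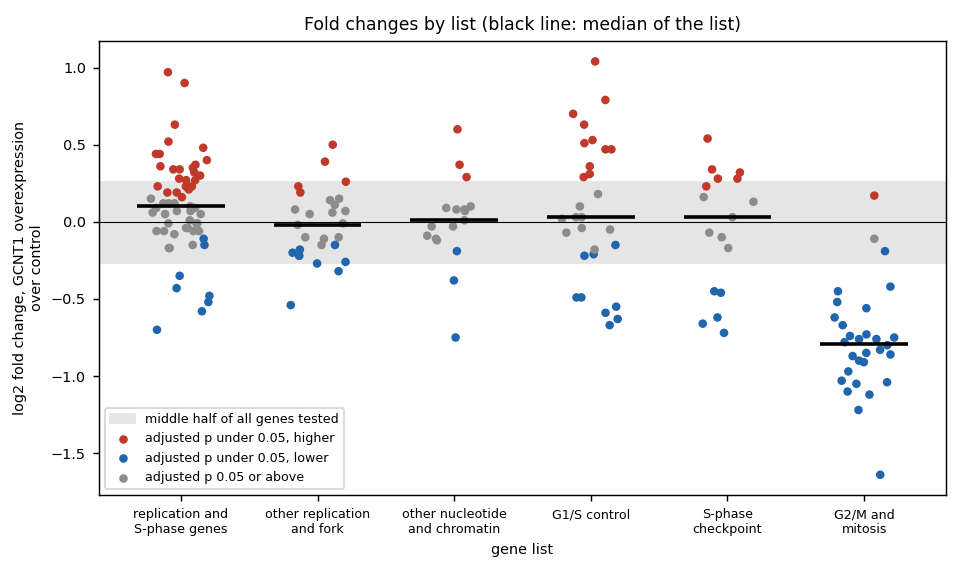
Log2 fold change (y axis, GCNT1 overexpression over control) of each gene in 6 lists (points), with the median of each list as a black line and the middle range of all genes tested, -0.27 to 0.26, in grey. The replication and S-phase genes centre on 0.10 with spread to both sides, and the G2/M and mitosis genes centre on -0.79.

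Each gene was also set beside its 50 nearest analysed genes on the chromosome. The median of these neighbours ran from -0.49 at RRM2 to 0.70 at MCM10 over the 59 genes, with 42 genes between -0.2 and 0.2. Of the 25 genes that rose, 13 lay in that middle range and 10 had a neighbour median above 0.2. Of the 8 that fell, 6 lay in the middle range and 2, RRM2 and DUT (-0.27), below -0.2. The log2 fold change lay below the neighbour median for all 8, and above it for 23 of the 25 that rose. The exceptions were PRIM1 (-0.04 relative to neighbours) and RPA3 (-0.06), while RFC1 (0.00) and CHAF1B (0.06) stayed close to their neighbours.

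Taken relative to the neighbours, the log2 fold change was 0.27 for MCM10, 1.05 for E2F2, 0.35 for E2F7, -0.21 for RRM2 and -0.39 for TYMS. It was 0.14 for POLE3, 0.16 for RFC3 and -0.24 for LIG1, each smaller in size than before. For others it was larger than before, among them E2F1 (0.44), MCM4 (0.34), MCM5 (0.45) and PCNA (0.31), which did not pass the test. E2F2, ORC1, MCM5, E2F1 and MCM4 rose where their neighbours had a negative median (-0.15, -0.20, -0.26, -0.25 and -0.18), and GINS4 fell where the median was 0.02. The part of DNA copy number in these values was not tested, and no DNA data were analysed here. The median over the 59 genes was 0.08 relative to neighbours.

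**Figure D5:**
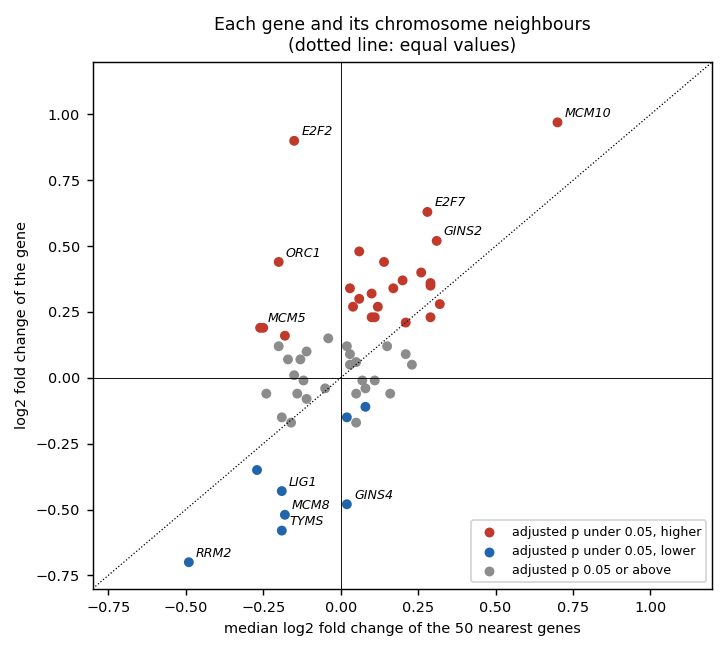
Log2 fold change of each of the 59 genes (y axis) against the median log2 fold change of its 50 nearest analysed genes on the chromosome (x axis), with equal values on the dotted line. MCM10 and RRM2 have the highest and the lowest neighbour medians (0.70 and -0.49), and E2F2 stands far above the line at 0.90 against -0.15.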

How the data were processed

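RNA from 3 control and 3 GCNT1 overexpressing PC3 lines was sequenced by the authors from stranded mRNA libraries with single reads. Reads were trimmed (Cutadapt), aligned to hg38 (HISAT2) and assigned to genes (featureCounts). The deposited values are raw counts per gene and library, neither normalized nor pooled. The gene annotation, the filter on low counts and the strand setting of the counting are not given in the sources used here. Without strand, reads of overlapping antisense genes cannot be told apart, which touches 25 of the 59 genes, and 9 overlap another gene on the same strand (GENCODE 44).

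Groups came from the sample labels. All 12703 genes were fitted in R 4.3.3 with edgeR 4.0.16 (filterByExpr, which kept every gene, TMM factors, quasi-likelihood test, group as the only term) and Benjamini-Hochberg adjustment over all 12703 genes. "edgeR adjusted p" in the text is this value. Total counts were 11392213 to 13825704 per library, at which 3 counts equal 0.217 to 0.263 CPM, a floor for counting error alone. The biological coefficient of variation (common dispersion) was 0.0515. Within groups, chi-square values over degrees of freedom were 1.65 to 5.61, above sampling noise, so each library counted as 1 sample. The tests were checked on simulated data.

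The members and the gene lists were chosen with earlier results of these data known, so no test of the list as a whole was run. Values by library were given by rule for the members past both thresholds, for the smallest p and the largest fold change in each role group, and for MCM2 to MCM7, PCNA, CDC6, CDT1, GMNN, E2F1, RRM2 and TYMS, 25 genes in all. Of the other lists the gene with the smallest p in each direction was named. Other genes were named after their values were seen. The alternatives were limma-voom (limma 3.58.1), DESeq2 1.42.0, scaling by RLE factors or by library size alone, filters of 0.5 CPM in 3 libraries, of 10 counts in every library or none, a replicate block, glmTreat, each library left out in turn, and values relative to neighbouring genes.

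Neighbours were the 50 nearest of 12643 genes placed on chromosomes 1 to 22 and X. Promoters were RefSeq windows of GRCh38.p14, searched in Python 3.11.15. Part of the marker values is not reported here.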

Additional observations from a re-analysis of the deposited data

How the results depend on the processing

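The median and the fold changes of the 25 genes given by rule kept their direction under each alternative, except that MCM3, which did not pass the test, went from -0.08 to 0.03 relative to its neighbours. In addition 6 of the 59 genes that did not pass the test changed sign when scaled by library size alone, and 1 to 3 did so in each fit without 1 library. Of the genes that passed the test, PRIM1 (-0.04) and RPA3 (-0.06) changed sign relative to their neighbours. Scaling by library size alone moved the median of all genes by 0.06 and that of the replication and S-phase genes from 0.10 to 0.162, and left 1 gene below the fold threshold in place of 2, as did glmTreat with 1. TYMS, at -0.582, was the gene that crossed it. Upward, glmTreat left 2 genes in place of 3. When libraries were left out one at a time the median ran from 0.069 (without GCNT1 OE library 1) to 0.128, the genes that rose from 22 to 26, those that fell from 6 to 9, and those past both thresholds from 2 to 3 upward and from 1 to 2 downward. GCNT1 OE libraries 2 and 3 and control libraries 1 and 3 each took TYMS out of the downward count when left out. DESeq2 gave 23 rises and 6 falls, limma-voom 24 and 8, and library size alone 30 and 6.

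With a replicate block 21 genes rose and 6 fell, with a median of 0.103, and MCM4, MCM5, POLA1, RPA3, RRM1 and E2F1 no longer passed. The numbers did not pair the samples: same-numbered libraries had correlations of -0.273, -0.0024 and -0.109, and 0 of the 6 libraries correlated best with its own number. Over 375 comparisons of the 25 genes with an alternative, 341 kept direction and call or moved by less than the spread between replicates, 13 lost their call and 2 gained one. The remaining 19 all came from the values relative to neighbouring genes, which moved 19 of the 25 genes and left 6 the same. The effect of depth was not tested. With standard errors of 0.04 to 0.13 over the 59 genes, a gene that did not pass may still have changed by a small amount.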

Other observations

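Of 10 genes of licensing turnover, 2 rose and 2 fell (40.0%, against 57.6% of all genes tested), with a median log2 fold change of -0.03. DTL, FBXO5 and CDC20, 3 of the 10 (30.0%), passed both thresholds, against 19.3% of all genes tested. DTL, the substrate receptor of the ubiquitin ligase that destroys CDT1 on PCNA-loaded DNA, was at 55.4, 53.3 and 53.6 CPM in the control libraries and at 94.1, 81.5 and 86.3 CPM in the GCNT1 OE libraries. Every GCNT1 OE library was higher, by a log2 fold change of 0.69 (SE 0.06, edgeR adjusted p = 1.1e-06). FBXO5 encodes EMI1, the inhibitor of the anaphase-promoting complex, and was at 57.5, 65.2 and 59.0 CPM against 33.5, 36.1 and 35.1 CPM. It fell without overlap, by 0.79 on the log2 scale (SE 0.07, edgeR adjusted p = 5.25e-07).

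Of 17 genes of the S-phase checkpoint with a row, 6 rose (35.3%, against 28.3% of all genes tested) and 5 fell (29.4%, against 29.3%), near the background, with a median log2 fold change of 0.03. RAD9A and RAD1 are parts of the same checkpoint clamp, 9-1-1, which is loaded at stalled forks. RAD9A was at 17.2, 19.8 and 19.3 CPM in the control libraries and at 29.0, 25.6 and 27.3 CPM in the GCNT1 OE libraries, a rise of 0.54 on the log2 scale (SE 0.08, edgeR adjusted p = 0.000116). RAD1 was at 47.9, 48.7 and 46.2 CPM against 30.8, 29.3 and 30.2 CPM, a log2 fold change of -0.66 (SE 0.06, edgeR adjusted p = 1.4e-06). Both pairs of groups were apart, and the 50 genes nearest to RAD1 had a median of -0.73, against 0.14 for those nearest to RAD9A.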
